A study of Mus musculus with 45 samples.

Results

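The genes described here encode proteins of the spliceosome and the SR proteins. They were chosen by symbol from the deposited expression table: every row whose symbol begins with Snrp (except the imprinted gene Snrpn), Sf3a1 to Sf3a3, Sf3b1 to Sf3b6, Prpf followed by a digit, Lsm1 to Lsm8, or Srsf followed by a digit. This gave 52 of the 26214 genes. By textbook role they were 7 genes of the Sm core ring, 5 of the U1 snRNP, 11 of the U2 snRNP, 8 of the LSm ring, 10 of the tri-snRNP and later factors, and 11 SR proteins.

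The study compared control and K36M fully grown oocytes (FGOs) and two-cell embryos that came from such oocytes, by RNA-seq with a stranded SMART-Seq kit. Control females were H3f3b K36M-flox/+ without Cre, and K36M females were H3f3b K36M-flox/+; Gdf9-Cre, in which the oocyte-specific Gdf9 promoter drives Cre and the H3f3b locus then expresses HA-tagged histone H3.3 with methionine in place of lysine at position 36. Controls therefore carried the same floxed allele. FGOs came from females 3 to 4 weeks old on a C57BL/6 / 129 hybrid background, and each of the 3 control and 3 K36M libraries held 5 FGOs. The two-cell libraries were single late embryos, collected 31 to 32 h after in vitro fertilization of superovulated oocytes with JF-1 sperm. There were 7 control and 8 K36M oocyte-derived embryos, and control replicate 4, excluded by the study because of a technical fault, was not compared. The H3f3b genotype of each embryo is not given in the sources used here. Pooled oocytes against single embryos, the paternal genome and fertilization in vitro all differed with stage. So did the number of amplification cycles (10 and then 10 in FGOs, 10 and then 13 in embryos). Sequencing depth differed too, as the paper lists more total reads for every FGO library than for every two-cell library. The parts of these factors in a stage difference cannot be told apart. No source used here says that the libraries of a group came from separate females, so the p-values measure the spread between these libraries.

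Splicing removes introns from pre-mRNA. Small nuclear ribonucleoproteins (snRNPs) assemble on each intron: U1 pairs with the 5′ splice site, U2 with the branch site, and the tri-snRNP of U4, U6 and U5 then joins and is remodelled into the active enzyme. The Sm proteins form a ring around the U1, U2, U4 and U5 RNAs, and the LSm proteins form the ring on U6 RNA. SR proteins are RNA-binding proteins with a domain rich in arginine and serine that mark exons and recruit U1 and U2, and several of them limit their own mRNA through a cassette exon that sends the transcript to decay. Fully grown mouse oocytes are close to transcriptionally silent and hold stored maternal RNA, and the late two-cell embryo has started the main wave of transcription from its own genome.

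All values are TPM (transcript abundance corrected for gene length and scaled so that each library sums to 1000000), so a value is a share of the library and not an amount per cell. A change in the share and a change in the total RNA per cell, or in the number of cells of a kind, cannot be told apart in such data. Between 16707 and 18559 genes were above 0 in the FGO libraries, 12115 to 17329 in the control embryos and 10894 to 14879 in the K36M oocyte-derived embryos, and TPM keeps no read depth. All 9 oocyte markers had a mean of at least 1 TPM in each group. Their summed level was 13830 to 16533 TPM in FGOs and 671 to 2135 TPM in embryos, while 8 two-cell zygotic markers summed to 34.5 to 73.9 TPM in FGOs and 270 to 2440 TPM in embryos. Of the 11 granulosa and cumulus markers, 9 reached a mean of 1 TPM in control FGOs, 8 in K36M FGOs, 7 in control embryos and 8 in K36M oocyte-derived embryos, and their sum was 24.8 to 145 TPM over all libraries. The 6 ovarian stroma markers summed to 2.45 to 57.4 TPM and the 6 blood markers to at most 59.5 TPM, and the part of such cells in the results was not tested. H3f3b itself, which at gene level does not tell the mutant from the normal allele, was 265 to 308 TPM in control FGOs, 377 to 418 TPM in K36M FGOs, 301 to 968 TPM in control embryos and 385 to 986 TPM in K36M oocyte-derived embryos.

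Splicing genes were well expressed at both stages. In control FGOs 51 of the 52 genes had a mean of at least 1 TPM and 21 a mean of at least 100 TPM, with a median of 62.4 TPM against 19.998 TPM over all genes above a mean of 1 TPM. The median was 95.8 TPM in the control embryos (16.4 TPM over all such genes) and 100.4 TPM in the K36M oocyte-derived embryos (14.3 TPM). Summed over the 52 genes, the level was 5975 ± 66.1 TPM in control FGOs (SD, n = 3) and 6062 ± 149 TPM in K36M FGOs (n = 3), and it was 7113 ± 1566 TPM in control embryos (n = 7) and 8048 ± 1052 TPM in K36M oocyte-derived embryos (n = 8). After median-of-ratios scaling, which divides each library by the median ratio of its genes to their geometric mean over libraries, the sums were 6387 ± 87.0 in control FGOs and 6108 ± 1445 in control embryos, so the order of the stages turned in controls, and 6229 ± 273 and 7370 ± 1123 with K36M. Single embryos varied far more than pools of oocytes. The median SD of log2(TPM + 1) over the genes was 0.11 in control FGOs and 0.18 in K36M FGOs, and 0.86 and 0.89 in the 2 groups of embryos, where all genes above 1 TPM had medians of 1.26 and 1.45.

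**Figure D1:**
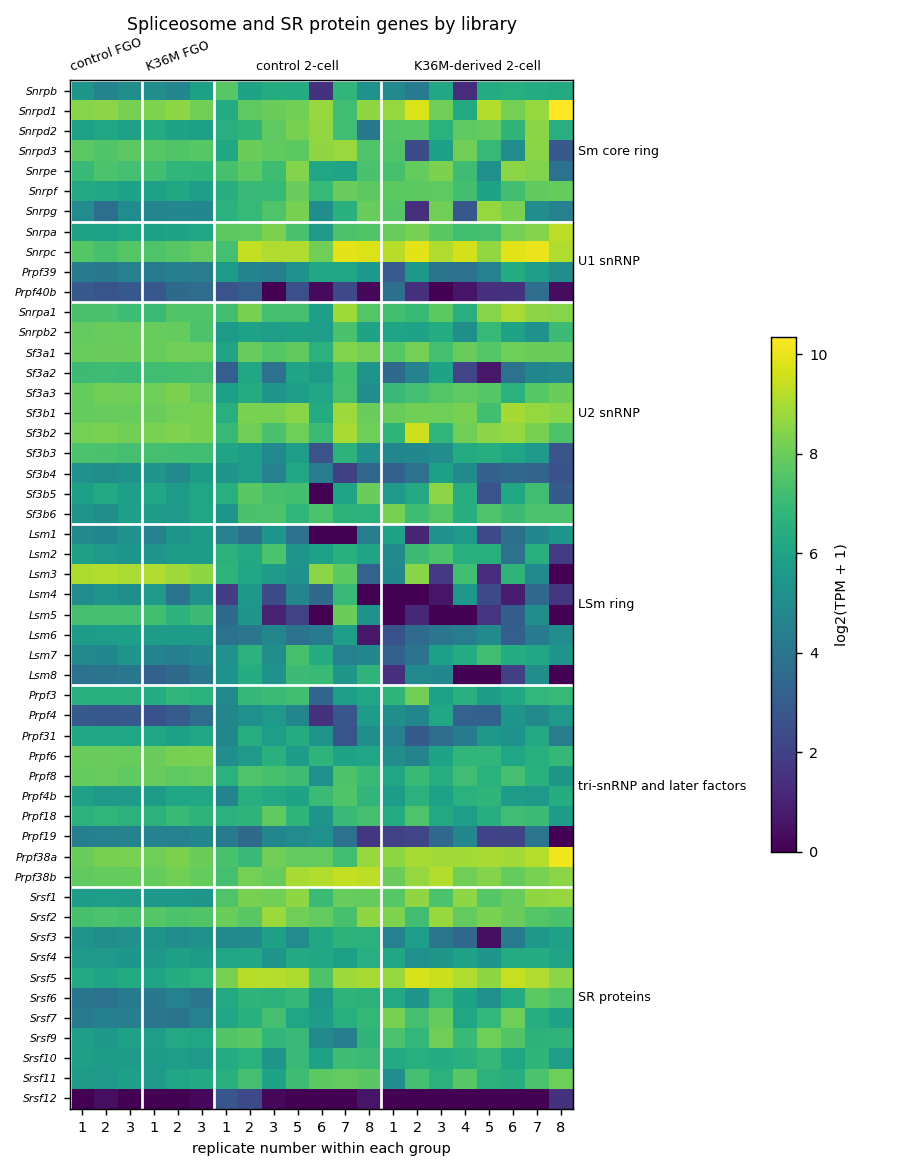
Heat map of log2(TPM + 1) for 51 of the 52 genes (rows, by role) in 21 libraries (columns, by group and replicate). FGO columns look alike within each row, while embryo columns differ, with single dark cells for genes listed at 0, many of them in the LSm ring and for Srsf12.

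Some genes share sequence with other places in the genome. Of the 52 genes, 14 had at least 1 near-identical copy outside their own locus, taken as a single alignment over at least 80% of the coding sequence at 95% identity or more in GRCm38.p6. They were Snrpd1, Snrpd2, Snrpe, Snrpf, Snrpg, Snrpa, Snrpc, Sf3b4, Lsm5, Lsm6, Lsm7, Srsf3, Srsf5 and Srsf10, with 30 copies in all. Exons of 9 genes overlapped an exon of a gene on the other strand: Snrpf, Snrpa, Prpf39, Sf3b3, Prpf31, Prpf4b, Srsf2, Srsf4 and Srsf9. How reads on such copies or overlaps were counted is not stated in the sources used here, so the values of these genes are uncertain.

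Within each role the genes covered a wide range of levels. Of the Sm proteins, Snrpd1 was highest in control FGOs (341 ± 40.2 TPM, n = 3) and Snrpg lowest (24.8 ± 10.9 TPM), and in control embryos Snrpd1 was again highest (255 ± 123 TPM, n = 7) and Snrpb lowest (82.1 ± 61.6 TPM). Of the U1 genes, Snrpc, whose product stabilizes U1 at the 5′ splice site, was highest at both stages (183 ± 20.3 and 579 ± 296 TPM), and Prpf40b lowest (6.07 ± 0.545 TPM in control FGOs and 0 to 7.75 TPM in control embryos). In the U2 snRNP, Sf3b2 led in control FGOs (292 ± 15.2 TPM) and Sf3b1, the core of the complex that holds the branch site, in control embryos (263 ± 137 TPM). These 2 genes differed by less than their spread in embryos. Sf3b4 was the lowest U2 gene at both stages (36.2 ± 2.52 and 31.7 ± 24.4 TPM).

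Lsm3 was the most abundant of the 52 genes in control FGOs at 538 ± 23.0 TPM (n = 3), 36.2 times the level of Lsm8 (14.9 ± 1.63 TPM), although both proteins are subunits of the ring on U6 RNA. In control embryos Lsm3 ranged from 8.64 to 376 TPM and Lsm1, the subunit specific to the cytoplasmic decay ring and lowest of the LSm genes there, from 0 to 41.5 TPM. Among the tri-snRNP and later factors, Prpf38a was highest in control FGOs (282 ± 28.9 TPM) and Prpf4 lowest (6.40 ± 0.233 TPM). In control embryos Prpf38b was highest (434 ± 202 TPM) and Prpf19, the ubiquitin ligase of the Prp19 complex, lowest (19.3 ± 11.7 TPM, lowest embryo 2.07 TPM). Among the SR proteins Srsf2 was highest in control FGOs (163 ± 5.60 TPM) and Srsf5 in control embryos (449 ± 159 TPM). Srsf12 was the 1 gene under the filter, in each fit except that of control embryos against control FGOs, which it entered through its embryo values (log2 difference 0.72, adjusted p = 0.475). It was listed at 0, 0.294 and 0 TPM in control FGOs and at 0, 0.0262 and 0.154 TPM in K36M FGOs. It reached 5.72 and 3.95 TPM in control embryo replicates 1 and 2 and at most 0.519 TPM in the other 5, and 7 of 8 K36M oocyte-derived embryos were at 0.

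**Figure D2:**
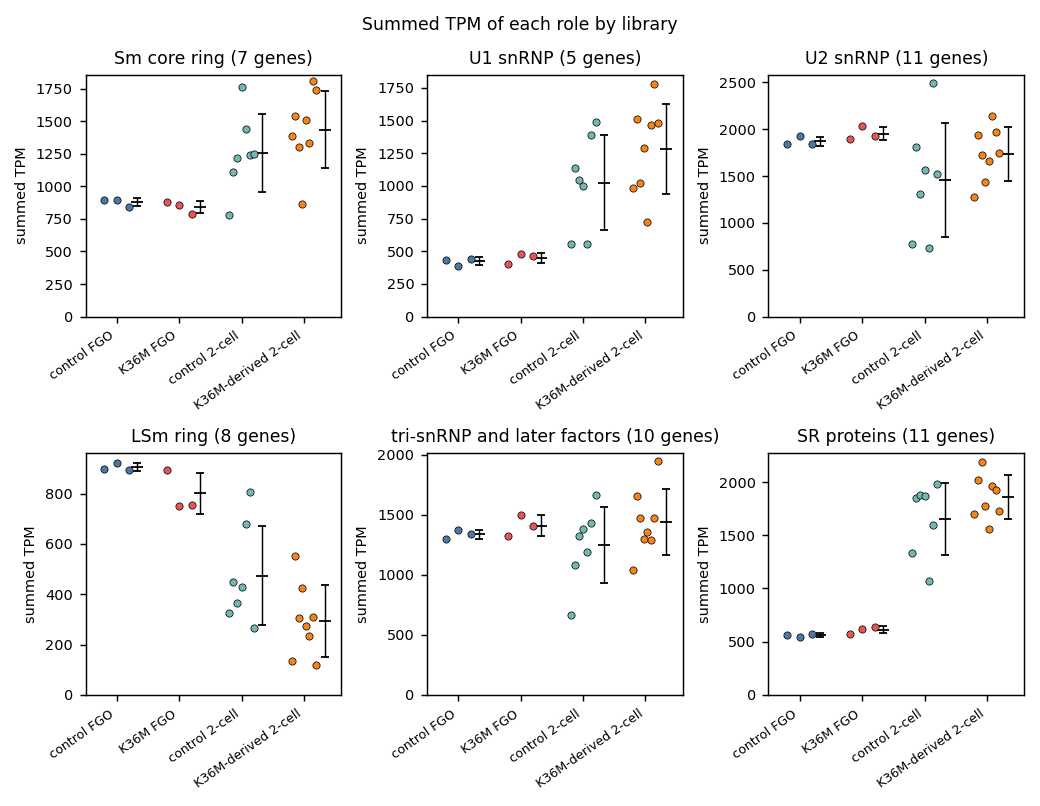
Summed TPM of the genes of each role in every library (points), with mean and SD (bars) for 3 control FGO, 3 K36M FGO, 7 control embryo and 8 K36M oocyte-derived embryo libraries. The SR protein sum lies between 544 and 641 TPM in FGOs and between 1070 and 2192 TPM in embryos, and the LSm sum is 752 TPM or more in FGOs and has its highest embryo at 806 TPM.

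The summed levels by role went different ways between the stages. For the 11 SR proteins the sum was 562 ± 16.2 TPM in control FGOs and 1653 ± 339 TPM in control embryos, and 611 ± 33.7 TPM in K36M FGOs and 1858 ± 204 TPM in K36M oocyte-derived embryos. Every embryo was above every FGO library. The U1 sum was 424 ± 28.7 and 1026 ± 366 TPM in controls and 449 ± 41.1 and 1283 ± 346 TPM with K36M, with no overlap of the stages in either genotype. The Sm core sum was 878 ± 32.1 and 1255 ± 299 TPM in controls and 840 ± 46.6 and 1434 ± 294 TPM with K36M. Its stages overlapped in both genotypes. The LSm sum was 905 ± 14.8 and 474 ± 196 TPM in controls and 801 ± 81.7 and 294 ± 144 TPM with K36M. The sums of the U2 snRNP (1869 ± 49.4 and 1457 ± 610 TPM in controls) and of the tri-snRNP and later factors (1337 ± 37.6 and 1247 ± 316 TPM) had embryos on both sides of the FGO range. After median-of-ratios scaling the order of the stages was the same in these role sums, except for the tri-snRNP and later factors with K36M (1409 and 1443 TPM before scaling, 1446 and 1327 after). No test was made of these sums.

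The first comparison asked how splicing genes differ between control two-cell embryos and control FGOs, and the second asked the same of K36M oocyte-derived embryos and K36M FGOs. Each was fitted with limma on log2(TPM + 1) over all genes with a mean of at least 1 TPM in the libraries compared, with Benjamini-Hochberg adjustment at 0.05, and log2 differences below are embryo minus FGO on that scale, which understates the change of low genes. In controls 16 of 52 genes passed, 11 higher and 5 lower in embryos, or 30.8% of the genes, near the 30.5% of all 16914 genes tested (15.0% higher and 15.5% lower). In K36M, 18 of 51 genes passed, 11 higher and 7 lower, or 35.3%, where 25.3% of all 16677 genes tested did (9.86% higher and 15.4% lower). The median log2 difference was 0.29 in controls (all genes 0.08) and 0.09 in K36M (all genes -0.16), and the latter became -0.07 under median-of-ratios scaling. That scaling moved the median of all genes to -0.10 and -0.28 and changed the split of calls to 7 higher and 7 lower in controls and 9 higher and 9 lower in K36M. Under it Snrpf, Snrpa, Snrpc and Sf3b6 lost their calls in controls, and Snrpd2 and Prpf38a lost theirs in K36M. The control count fell to 9 without control FGO replicate 1 and to 8 without control FGO replicate 2, and rose to 28 with array weights, which let noisier libraries count less. The K36M count fell to 8, 11 and 9 without K36M FGO replicates 1, 2 and 3.

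**Figure D3:**
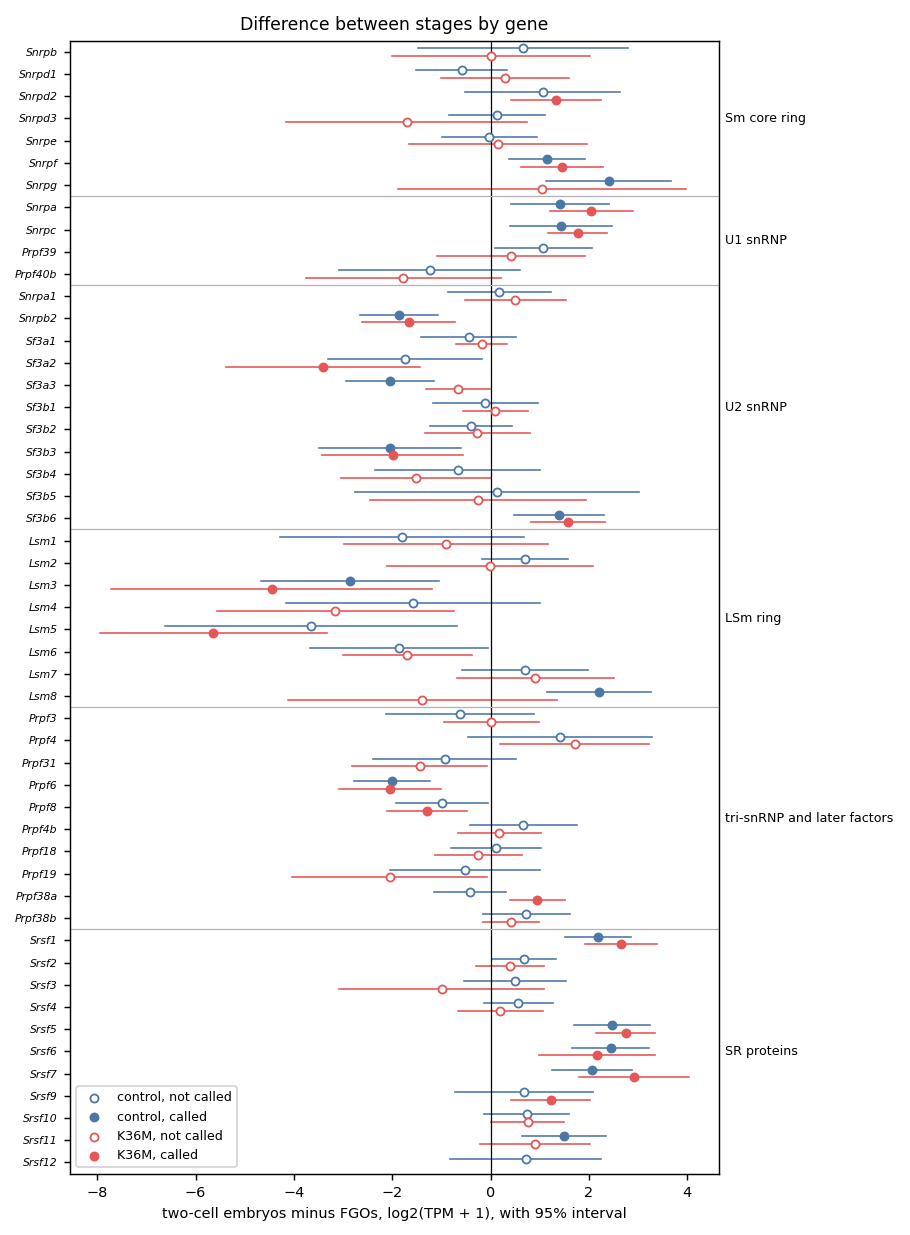
Embryo minus FGO difference in log2(TPM + 1) for 51 genes with its 95% interval, in controls (blue) and K36M (red). Filled points passed an adjusted p of 0.05 in limma, 16 in controls and 18 in K36M, and the SR proteins Srsf1, Srsf5, Srsf6 and Srsf7 lie at 2.06 or more in both.

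Among the SR proteins, 5 of 11 rose in controls and 5 of 10 tested rose in K36M, and none fell. Over all genes tested 15.0% rose and 15.5% fell in controls, and 9.86% rose and 15.4% fell in K36M. Srsf1, Srsf5, Srsf6 and Srsf7 passed in both comparisons. Srsf1, an SR protein that binds exonic enhancers and is needed for much constitutive splicing, was 50.2, 52.8 and 51.9 TPM in control FGOs and 180, 297, 279, 384, 132, 246 and 234 TPM in control embryos. No embryo was as low as any FGO library, and the log2 difference was 2.19 ± 0.31 (SE, adjusted p = 0.000202). In K36M, FGOs held 44.4, 44.1 and 43.2 TPM and the embryos 168 to 418 TPM with a median of 310 TPM, a log2 difference of 2.65 ± 0.34 (adjusted p = 7.26e-05).

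Srsf5, whose product binds purine-rich exonic enhancers, was 79.3, 64.8 and 79.8 TPM in control FGOs, and control embryos were at 172 to 599 TPM with a median of 507 TPM. The groups did not overlap, and the log2 difference was 2.47 ± 0.36 (adjusted p = 0.000234). In K36M the FGOs were at 64.6, 82.3 and 96.3 TPM and the embryos at 369 to 839 TPM with a median of 549 TPM, a log2 difference of 2.75 ± 0.28 (adjusted p = 1e-05). Srsf5 has 1 near-identical copy elsewhere in the genome.

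Srsf6 was lower, at 15.2, 13.5 and 18.2 TPM in control FGOs and 44.3 to 117 TPM (median 99.7 TPM) in control embryos. All embryos again lay above all FGO libraries, by 2.44 ± 0.36 on the log2 scale (adjusted p = 0.000284). In K36M it was 16.5, 22.4 and 15.5 TPM in FGOs and 35.9 to 211 TPM (median 77.96 TPM) in embryos, a log2 difference of 2.16 ± 0.55 (adjusted p = 0.0103) that lost the call without K36M FGO replicate 1 or 3 (adjusted p = 0.0516 to 0.0546). Srsf7, the SR protein with a zinc knuckle beside its RNA recognition motif, was 18.6, 20.9 and 20.4 TPM in control FGOs and 49.7 to 157 TPM (median 90.0 TPM) in control embryos. The groups were apart, with a log2 difference of 2.06 ± 0.38 (adjusted p = 0.00125). In K36M it was 15.7, 14.7 and 21.8 TPM in FGOs and 62.3 to 293 TPM (median 135 TPM) in embryos, a log2 difference of 2.92 ± 0.52 (adjusted p = 0.00104).

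Srsf11 passed only in the control comparison (log2 difference 1.496 ± 0.40, adjusted p = 0.0126), with FGOs at 48.0, 46.5 and 56.2 TPM and embryos at 63.5 to 233 TPM. The groups lay apart. Its call was lost without control FGO replicate 1 or 2 (adjusted p = 0.0560 to 0.0591), and in K36M the difference was 0.90 (adjusted p = 0.238). Srsf9 passed only in the K36M comparison (1.23 ± 0.37, adjusted p = 0.0270), with FGOs at 54.8 to 75.2 TPM and embryos at 101 to 270 TPM, and lost the call without any 1 of the 3 K36M FGO libraries (adjusted p = 0.0717 to 0.129). The interaction of stage and genotype did not pass for Srsf9 (0.54) or Srsf11 (-0.60). Srsf2, which like Srsf1 has served as a model SR protein, had log2 differences of 0.69 in controls and 0.40 in K36M, and Srsf4 of 0.56 and 0.20. Srsf10, known as a splicing repressor once dephosphorylated, had 0.73 and 0.75, and Srsf3, the smallest SR protein, 0.50 and -0.997, with adjusted p of 0.105 to 0.737 for these 4 genes. Srsf12 had 0.72 (adjusted p = 0.475) in controls and was not tested in K36M.

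**Figure D4:**
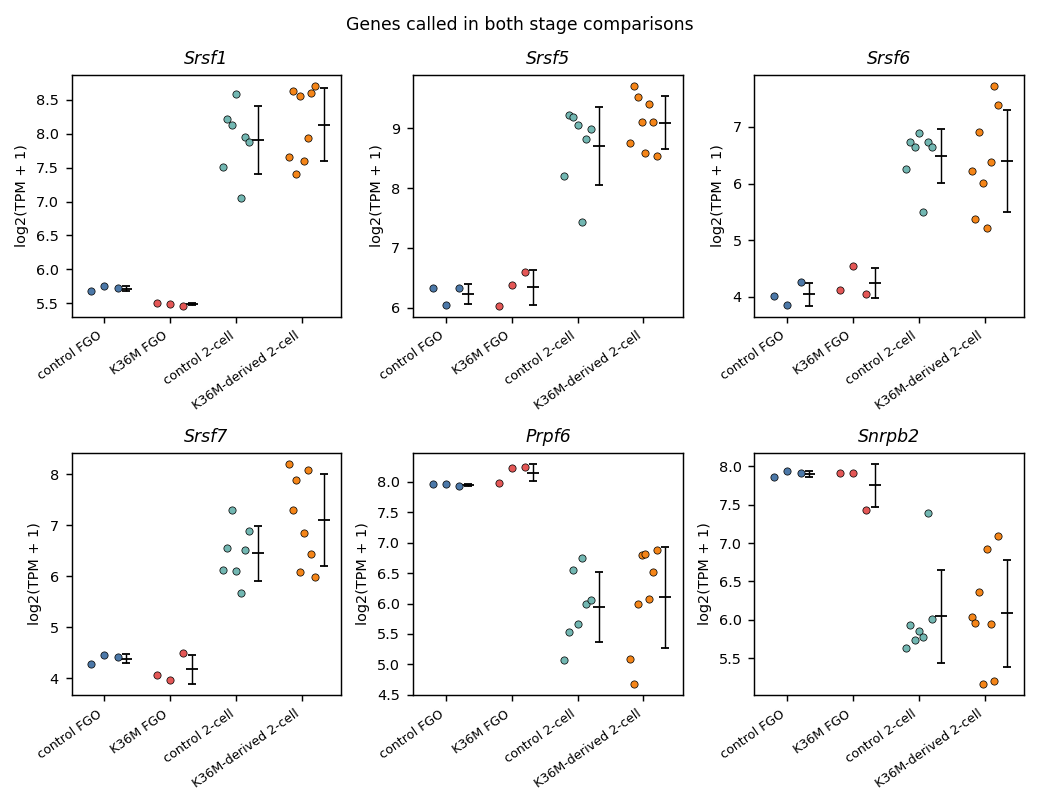
log2(TPM + 1) in each library (points) for Srsf1, Srsf5, Srsf6, Srsf7, Prpf6 and Snrpb2 in the 4 groups, with mean and SD (bars). In each panel the embryos and the FGOs of both genotypes lie apart, with embryos higher for the 4 SR genes and lower for Prpf6 and Snrpb2.

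Of the 7 Sm core genes 2 rose in each comparison, or 28.6%, against 30.5% of all genes called in controls (15.0% higher) and 25.3% in K36M (9.86% higher). Snrpf rose in both. Snrpf was 75.5, 70.3 and 62.6 TPM in control FGOs and 86.7 to 249 TPM in control embryos (log2 difference 1.14 ± 0.36, adjusted p = 0.0283), and in K36M 54.7 to 71.3 TPM and 62.6 to 239 TPM (1.45 ± 0.39, adjusted p = 0.0146). The control groups did not overlap, and 1 K36M oocyte-derived embryo lay within the FGO range. The control call was lost without any 1 of the control FGO libraries (adjusted p = 0.0805 to 0.113), and the K36M call without K36M FGO replicate 1 or 3 (adjusted p = 0.0647 to 0.0745). Snrpg passed only in controls, from 30.7, 12.2 and 31.6 TPM to 33.3 to 298 TPM (2.41 ± 0.59, adjusted p = 0.00792, or 0.0604 without control FGO replicate 2). Snrpd2 passed only in K36M (1.33 ± 0.43, adjusted p = 0.0330), from 57.9 to 84.2 TPM in FGOs to 89.7 to 361 TPM in embryos, and lost the call without any 1 of the K36M FGO libraries or embryo replicate 4 (adjusted p = 0.0531 to 0.136). The other 4 Sm genes had adjusted p of 0.310 or more in both comparisons.

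Of the 5 U1 genes Snrpa and Snrpc rose in both comparisons and the others did not pass, so 40% were called in each, against 30.5% and 25.3% of all genes. Snrpa, which binds a stem-loop of U1 RNA, was 61.2, 59.4 and 66.2 TPM in control FGOs and 213, 220, 310, 166, 45.9, 174 and 184 TPM in control embryos. Replicate 6 was the 1 embryo below the FGOs, and the log2 difference was 1.41 ± 0.46 (adjusted p = 0.0348). In K36M the FGOs were at 57.4, 61.4 and 67.7 TPM and the embryos at 148 to 637 TPM (2.05 ± 0.39, adjusted p = 0.00172). Snrpc was 160 to 197 TPM in control FGOs and 150 to 960 TPM in control embryos (1.43 ± 0.48, adjusted p = 0.0387), and 180 to 232 TPM and 399 to 1054 TPM in K36M (1.77 ± 0.28, adjusted p = 0.000391). In controls both calls were lost in 8 of 10 fits that left out 1 library, all but those without embryo replicates 6 and 7 for Snrpa (adjusted p = 0.0526 to 0.116) and without embryo replicates 1 and 6 for Snrpc (0.0582 to 0.138). The U1-associated genes Prpf39 and Prpf40b did not pass in either comparison, with log2 differences of 1.07 and -1.24 in controls and 0.42 and -1.77 in K36M.

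In the U2 snRNP, 1 gene of 11 rose and 3 fell in each comparison, or 36.4%, against 30.5% of all genes in controls and 25.3% in K36M. Snrpb2, which binds a stem-loop of U2 RNA together with the product of Snrpa1, fell in both. It was 231, 244 and 241 TPM in control FGOs and 48.4, 60.0, 52.2, 57.0, 53.8, 166 and 63.4 TPM in control embryos. Embryo replicate 7 was far above the others and still below each FGO library, and the log2 difference was -1.86 ± 0.37 (adjusted p = 0.00215). In K36M it was 241, 239 and 171 TPM in FGOs and 34.9 to 135 TPM in embryos (-1.67 ± 0.44, adjusted p = 0.0129, or 0.0728 and 0.0737 without K36M FGO replicates 1 and 2). Its partner Snrpa1 had log2 differences of 0.18 and 0.50, neither significant (adjusted p = 0.796 and 0.496).

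Sf3b3, a scaffold of the SF3b complex, was lower in embryos in both comparisons. It went from 154 to 169 TPM in control FGOs to 5.29 to 102 TPM in control embryos (-2.05 ± 0.67, adjusted p = 0.0344) and from 143 to 155 TPM to 5.66 to 86.6 TPM in K36M (-1.99 ± 0.67, adjusted p = 0.0426). The control call was lost without any 1 of the 3 FGO libraries or embryo replicate 3 or 8 (adjusted p = 0.0522 to 0.114), and the K36M call without any 1 of the 3 FGO libraries or embryo replicate 1, 2, 3 or 7 (0.0533 to 0.145). Sf3b6, the subunit that contacts the branch-site adenosine, rose in both, from 33.7 to 56.3 TPM to 42.6 to 175 TPM in controls (1.39 ± 0.42, adjusted p = 0.0248) and from 47.1 to 66.2 TPM to 85.9 to 297 TPM in K36M (1.57 ± 0.35, adjusted p = 0.00489). Its control call was lost without control FGO replicate 1 or 2 (adjusted p = 0.0954 to 0.118).

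The SF3a subunits differed from each other. Sf3a3 fell in controls from 237, 277 and 264 TPM to 55.5, 81.8, 40.4, 53.1, 68.7, 154 and 32.6 TPM (-2.05 ± 0.41, adjusted p = 0.00244), and in K36M it had a log2 difference of -0.66 (adjusted p = 0.131). Sf3a2 fell in K36M from 141, 145 and 155 TPM to 0.572 to 62.3 TPM with a median of 18.1 TPM (-3.41 ± 0.92, adjusted p = 0.0145, or 0.0652 to 0.0695 without any 1 of the FGO libraries), and had -1.74 (adjusted p = 0.0871) in controls. Sf3a1 had -0.44 and -0.18 (adjusted p = 0.483 and 0.630). The branch-site subunits Sf3b1 and Sf3b2 had log2 differences between -0.40 and 0.09 and did not pass in either comparison. Sf3b4 (-0.67 and -1.52) and Sf3b5 (0.13 and -0.25), which was listed at 0 in control embryo replicate 6, did not pass either.

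Of the 8 LSm genes 1 rose and 1 fell in controls and 2 fell in K36M, or 25% in each, against 30.5% and 25.3% of all genes tested. Lsm3 fell in both comparisons, from 534, 562 and 517 TPM in control FGOs to 106, 72.9, 51.7, 37.3, 376, 213 and 8.64 TPM in control embryos (-2.86 ± 0.84, adjusted p = 0.0212), and from 554, 464 and 384 TPM in K36M FGOs to 26.3, 362, 2.28, 147, 1.52, 105, 29.7 and 0 TPM (-4.45 ± 1.52, adjusted p = 0.0448). FGOs and embryos were apart in each. The control call was lost without any 1 of the control FGO libraries (adjusted p = 0.0693 to 0.0784), and the K36M call without any 1 of the K36M FGO libraries or embryo replicate 1, 3, 5 or 7 (0.0606 to 0.152). Lsm5 fell in K36M, from 149, 103 and 135 TPM to 0, 1.31, 0, 0, 1.91, 7.24, 33.3 and 0 TPM (-5.64 ± 1.08, adjusted p = 0.00164). In controls it was 151 to 157 TPM in FGOs and 11.0, 40.5, 1.02, 3.14, 0, 260 and 38.1 TPM in embryos, with 1 embryo above the FGOs (-3.65, adjusted p = 0.0606). Lsm5 has 2 near-identical copies elsewhere.

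Lsm8, the subunit that sets the nuclear U6 ring apart from the cytoplasmic ring, rose in controls. It was 13.3, 14.7 and 16.6 TPM in control FGOs and 38.7, 83.5, 37.4, 136, 129, 42.8 and 105 TPM in control embryos, apart from the FGOs throughout (2.201 ± 0.49, adjusted p = 0.00444). The call was lost when control embryo replicate 4, where Lsm8 is listed at 0, was added (adjusted p = 0.408). In K36M Lsm8 did not pass (-1.39 ± 1.27, adjusted p = 0.477), at 8.32, 10.9 and 17.2 TPM in FGOs and 1.64, 29.7, 26.3, 0, 0, 2.90, 33.3 and 0 TPM in embryos. The other LSm genes, Lsm1, Lsm2, Lsm4, Lsm6 and Lsm7, did not pass in either comparison, with log2 differences from -3.16 to 0.91.

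Of the tri-snRNP and later factors, 1 of 10 genes passed in controls and 3 of 10 in K36M, where 30.5% and 25.3% of all genes tested did. Prpf6, which bridges U5 and U4/U6 in the tri-snRNP, fell in both. It was 249, 248 and 242 TPM in control FGOs and 32.6, 45.3, 92.7, 49.7, 106, 62.5 and 65.5 TPM in control embryos, a log2 difference of -2.005 ± 0.36 (adjusted p = 0.00112). In K36M it was 252, 299 and 301 TPM in FGOs and 24.6 to 117 TPM in embryos (-2.05 ± 0.48, adjusted p = 0.00644). The FGO and embryo values lay apart in both genotypes. Prpf8, the large protein at the catalytic centre, passed in K36M (-1.29 ± 0.38, adjusted p = 0.0233, or 0.0843 to 0.102 without any 1 of the FGO libraries), and in controls had -0.98 (adjusted p = 0.105). Prpf38a, which joins with the tri-snRNP and is needed for activation, passed in K36M with higher values in embryos (0.95 ± 0.26, adjusted p = 0.0159, or 0.0750 and 0.0850 without K36M FGO replicate 1 or 3), and in controls had -0.42 (adjusted p = 0.373). The other 7 genes did not pass in either comparison, with log2 differences between -2.05 and 1.71.

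The stage comparisons share no library. All embryos lay above all FGO libraries for 8 genes in controls and below for 6, where the groups did not overlap for 32.7% of all genes (14.5% higher and 18.2% lower). In K36M 11 genes lay above and 8 below (9.41% and 16.9% of all genes, 26.3% in all). Of the 16 genes called in controls and the 18 in K36M, 12 were called in both, all in the same direction, which is 75.0% of the control calls and 66.7% of the K36M calls. Over all genes 3181 were called in both, each in the same direction, which is 61.7% of the control calls and 75.4% of the K36M calls. Snrpf, Snrpa, Snrpc, Sf3b6, Srsf1, Srsf5, Srsf6 and Srsf7 were higher in embryos in both, and Snrpb2, Sf3b3, Lsm3 and Prpf6 lower. Of 51 genes tested in both, 40 had the same sign (78.4%, against 87.8% of all genes tested in both). Under each of 19 alternative fits 7 genes kept their call in controls (Srsf1, Srsf5, Srsf6, Srsf7, Prpf6, Snrpb2 and Sf3a3) and 7 in K36M (Srsf5, Srsf1, Snrpc, Srsf7, Snrpa, Lsm5 and Prpf6).

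The promoters of 6 of these genes are printed to show what lies at the starts of the 4 SR genes that rose together and of 2 genes that fell in both genotypes. They were chosen after the values were seen. Each is the stretch from 250 bases before to 50 after the start that the RefSeq table lists for the gene (build GRCm38.p6, the assembly of mm10), which for Srsf1 is the start of its mRNAs, inside a gene whose annotated span begins upstream at 88046499 with a noncoding transcript model: Srsf1 at chr11:88047123-88047422 on the plus strand, Srsf5 at chr12:80945249-80945548 (plus), Srsf6 at chr2:162931258-162931557 (plus), Srsf7 at chr17:80207256-80207555 (minus), Prpf6 at chr2:181601069-181601368 (plus) and Snrpb2 at chr2:143062819-143063118 (plus). The annotated spans of Srsf5 and Srsf7 also begin upstream of the starts used, at 80945495 and 80207369. Capitals mark the GC box, GGGCGG or its reverse complement CCGCCC, which is the sequence the Sp1 family binds.
Srsf1: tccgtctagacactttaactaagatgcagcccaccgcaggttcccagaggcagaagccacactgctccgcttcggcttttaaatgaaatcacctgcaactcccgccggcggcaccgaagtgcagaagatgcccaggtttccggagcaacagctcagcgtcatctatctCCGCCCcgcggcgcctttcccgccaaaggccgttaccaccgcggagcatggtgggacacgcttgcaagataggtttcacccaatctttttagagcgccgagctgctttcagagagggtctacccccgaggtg
Srsf5: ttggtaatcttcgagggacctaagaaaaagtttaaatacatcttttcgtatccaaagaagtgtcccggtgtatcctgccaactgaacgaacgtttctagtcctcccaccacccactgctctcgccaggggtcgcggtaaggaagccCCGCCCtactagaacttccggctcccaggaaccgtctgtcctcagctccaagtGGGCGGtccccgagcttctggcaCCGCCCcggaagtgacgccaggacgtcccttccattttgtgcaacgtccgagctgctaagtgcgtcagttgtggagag
Srsf6: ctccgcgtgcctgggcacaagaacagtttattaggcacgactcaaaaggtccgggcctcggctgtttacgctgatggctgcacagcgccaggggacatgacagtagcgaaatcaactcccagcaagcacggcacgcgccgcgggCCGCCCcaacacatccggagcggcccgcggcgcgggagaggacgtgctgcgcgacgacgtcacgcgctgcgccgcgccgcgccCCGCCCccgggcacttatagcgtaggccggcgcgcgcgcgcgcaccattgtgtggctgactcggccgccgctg
Srsf7: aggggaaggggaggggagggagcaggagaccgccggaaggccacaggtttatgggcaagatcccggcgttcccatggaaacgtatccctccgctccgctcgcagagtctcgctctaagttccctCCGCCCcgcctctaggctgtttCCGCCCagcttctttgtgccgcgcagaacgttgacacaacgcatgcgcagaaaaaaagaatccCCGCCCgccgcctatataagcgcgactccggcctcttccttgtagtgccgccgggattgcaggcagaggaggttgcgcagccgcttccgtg
Prpf6: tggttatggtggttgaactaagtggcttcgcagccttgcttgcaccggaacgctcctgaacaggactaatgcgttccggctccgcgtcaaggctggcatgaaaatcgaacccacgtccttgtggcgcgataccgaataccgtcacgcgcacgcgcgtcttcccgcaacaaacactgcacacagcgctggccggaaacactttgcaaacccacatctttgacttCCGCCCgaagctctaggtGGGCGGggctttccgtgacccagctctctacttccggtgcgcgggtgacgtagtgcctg
Snrpb2: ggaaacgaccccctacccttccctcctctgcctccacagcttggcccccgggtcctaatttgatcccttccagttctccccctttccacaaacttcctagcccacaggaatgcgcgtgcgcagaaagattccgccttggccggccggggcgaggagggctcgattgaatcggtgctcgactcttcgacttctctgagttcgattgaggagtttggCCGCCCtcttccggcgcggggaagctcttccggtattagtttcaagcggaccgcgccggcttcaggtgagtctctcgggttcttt

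The GC box was found 1 time in the Srsf1 promoter, 3 times in Srsf5, 2 times in Srsf6, 3 times in Srsf7, 2 times in Prpf6 and 1 time in Snrpb2, so genes that rose and genes that fell both had it. RefSeq promoters were at hand for 44 of the 52 genes. Of these, 70.5% held a GC box on either strand, against 35.9% of all 27025 promoters of the same length. The median number of CG dinucleotides was 24 against 7. The 27025 promoters were not matched to the 44 by expression or CG content, so this difference is not shown to be particular to splicing genes. The TATA box (TATAAA) was in 9.09% of the 44 and 14.2% of all, and the CCAAT box (CCAAT) in 40.9% and 37.9%. The core of the OBOX and OTX homeobox factors (GGATTA) was in 11.4% and 7.16%, and that of the NR5A nuclear receptors (AAGGTCA) in 9.09% and 4.66%. Both strands were searched, and 1 pair of matches of different motifs overlapped in the 44 promoters. These matches are descriptions of letters and not of bound sites.

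The third comparison asked whether H3.3K36M in the oocyte changes the splicing genes of FGOs. No gene of the 51 tested passed in limma, where 0.00726% of all 13775 genes tested did, and 2 genes, both higher, had an unadjusted p under 0.05 (10.5% of all genes, 5.15% higher and 5.34% lower). The log2 differences, K36M minus control, had a median of 0.07 (all genes 0.01) and were positive for 29 genes and negative for 22. FGO levels of the 2 genotypes were close. Sf3b1 was 237, 241 and 243 TPM in controls and 251, 289 and 293 TPM in K36M, a log2 difference of 0.21 (95% interval 0.02 to 0.40, adjusted p = 0.449). Prpf6 was 249, 248 and 242 TPM and 252, 299 and 301 TPM, a difference of 0.20 (adjusted p = 0.473). In both genes every K36M library was above every control library by a small margin.

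Of the 51 genes, 3 had K36M libraries all above the controls and 3 all below, where 7.46% and 8.17% of all genes did. The third gene above was Sf3a2, at 134, 138 and 129 TPM and 141, 145 and 155 TPM (0.13, adjusted p = 0.604). The genes below were Srsf1 (50.2, 52.8 and 51.9 TPM against 44.4, 44.1 and 43.2 TPM, a log2 difference of -0.23, adjusted p = 0.497), Lsm5 (151 to 157 TPM against 103 to 149 TPM, -0.27, adjusted p = 0.511) and Lsm7 (27.1 to 40.5 TPM against 20.9 to 26.9 TPM, -0.38, adjusted p = 0.515). Srsf9 was next among the positive differences by p, at 55.7, 44.7 and 59.2 TPM against 54.8, 75.2 and 68.5 TPM (0.31, adjusted p = 0.527), with overlapping groups. By role, the median log2 difference ran from -0.21 for the LSm ring, where 7 of 8 genes were negative, to 0.13 for the SR proteins, where 7 of 10 were positive. Over all 13775 genes tested, 7179 were positive and 6596 negative. None of the genes named in this comparison passed under any of 14 alternative fits.

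The fourth comparison asked whether embryos from K36M oocytes differ from control embryos in these genes. Again no gene of the 51 tested passed in limma, where 0.00% of all 17362 genes tested did. An unadjusted p under 0.05 was found for 5 genes, 2 higher and 3 lower (7.71% of all genes, 1.20% higher and 6.50% lower). The median log2 difference was -0.07 for these genes and -0.26 over all genes, and it became 0.01 and -0.01 under quantile normalization and 0.03 and -0.17 under median-of-ratios scaling. The number of genes above 0 was also lower in the K36M oocyte-derived embryos (median 12994 against 14786), and its part in these differences was not tested. At this spread between embryos the intervals are wide.

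**Figure D5:**
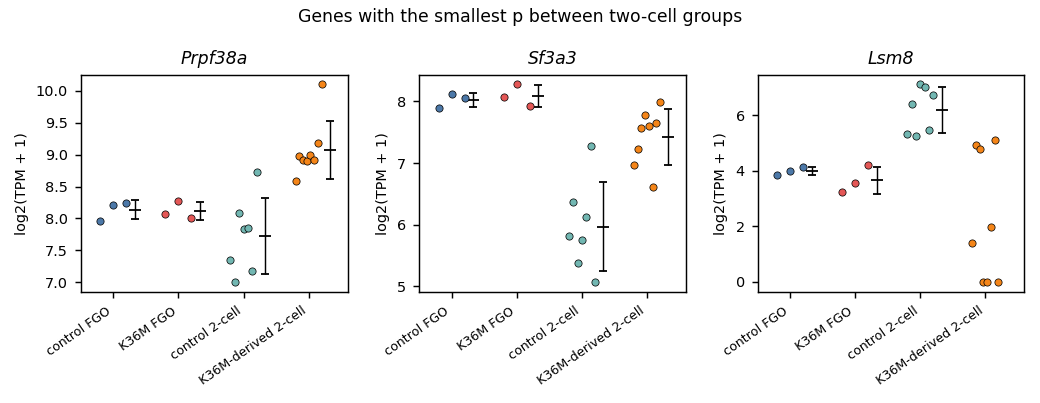
log2(TPM + 1) in each library (points) for Prpf38a, Sf3a3 and Lsm8 in the 4 groups, with mean and SD (bars) where no library is at 0. Among embryos, Prpf38a and Sf3a3 lie mostly higher and Lsm8 lies lower in the K36M oocyte-derived group, and none passed an adjusted p of 0.05.

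Prpf38a (chr4:108564867-108579336, minus strand) had the smallest p of the 51 genes. It was 162, 127, 270, 227, 230, 144 and 423 TPM in control embryos and 384, 503, 481, 476, 510, 481, 582 and 1095 TPM in K36M oocyte-derived embryos. Of the control embryos, replicate 8 alone lay within the K36M range. The log2 difference was 1.35 (95% interval 0.80 to 1.90), with an unadjusted p of 3.83e-05 and an adjusted p of 0.125 in limma. Sf3a3 (chr4:124714861-124732423, plus strand), a subunit of the SF3a complex that secures U2 at the branch site, was 55.5, 81.8, 40.4, 53.1, 68.7, 154 and 32.6 TPM in control embryos and 125, 149, 189, 219, 193, 97.1, 199 and 254 TPM in the others. Control replicate 7 was within the K36M range, and the log2 difference was 1.46 (0.74 to 2.17, adjusted p = 0.306). In FGOs neither gene differed between genotypes beyond the spread (log2 differences -0.02 and 0.07). Control replicate 4, left out here, was at 21.3 TPM for Prpf38a, below all other control embryos, and at 178 TPM for Sf3a3, above them all.

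Lsm8 (chr6:18848635-18854052, plus strand) was lower in the K36M oocyte-derived embryos. It was 38.7, 83.5, 37.4, 136, 129, 42.8 and 105 TPM in the 7 control embryos and 1.64, 29.7, 26.3, 0, 0, 2.90, 33.3 and 0 TPM in the 8 others. The groups did not overlap, which was so for 1 of the 51 genes and for 0.115% of all genes tested (0.0922% in this direction and 0.0230% in the other). Lsm8 was at 0 in control replicate 4. The log2 difference was -3.91 (95% interval -5.65 to -2.18, adjusted p = 0.185), a value that depends on the pseudocount because 3 embryos were listed at 0. Prpf19 and Lsm4 were also listed at 0 in single embryos. Whether such a 0 marks an absent transcript or one missed in the library was not tested.

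The remaining genes with an unadjusted p under 0.05 were Snrpd3 (69.6 to 437 TPM against 4.33 to 357 TPM, a log2 difference of -1.88, adjusted p = 0.578) and Srsf3 (28.8 to 102 TPM against 0.315 to 59.8 TPM, -1.49, adjusted p = 0.612). Both had overlapping groups. Srsf9, next among the positive differences by p, was 20.7 to 204 TPM against 101 to 270 TPM (0.85, adjusted p = 0.663). By role, the LSm ring had a median log2 difference of -1.26 (median SE 0.88), with 6 of 8 genes negative. Over all 17362 genes tested, 11084 were negative. The other roles had medians from -0.23 to 0.22. Of the 8 K36M oocyte-derived embryos 4 were listed at 0 for Lsm5, 3 for Lsm8, 2 for Lsm4 and 1 for Lsm3, against 1 of 7 control embryos for Lsm5, 1 for Lsm4 and 0 for Lsm8 and Lsm3. Lsm1 went the other way, listed at 0 in 2 of the 7 control embryos and in 0 of the 8 K36M oocyte-derived embryos. The 4 SR genes that rose between the stages had log2 differences of 0.23 (Srsf1), 0.38 (Srsf5), -0.08 (Srsf6) and 0.66 (Srsf7) between the 2 groups of embryos. Their 95% intervals were -0.35 to 0.81, -0.16 to 0.93, -0.91 to 0.74 and -0.14 to 1.46.

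Whether the stage difference itself differs with genotype was tested as an interaction over the 21 libraries. No gene of 51 passed in limma, where 0.00% of all 17358 genes did, and 3, 2 positive and 1 negative, had an unadjusted p under 0.05 (1.15% of all genes, 0.207% positive and 0.939% negative). These were Prpf38a (1.37 on the log2 scale, 95% interval 0.48 to 2.27), Sf3a3 (1.39, 0.31 to 2.47) and Lsm8 (-3.59, -6.53 to -0.65), each with an adjusted p of 1. They are the genes with the smallest p between the 2 groups of embryos, and the interaction uses the same embryos. Of the next genes by p in each direction, Srsf7 had 0.86, Snrpd3 -1.84 and Sf3a2 -1.67. The genes called in 1 stage comparison and not in the other, 4 in controls and 6 in K36M, are therefore not shown to differ between genotypes.

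Other genes of the splicing pathway were followed from a list of 105 symbols in 8 groups, of which 104 were matched to a row (Nhp2l1, an older symbol of the listed Snu13, was not). In FGOs and in embryos none passed between genotypes in limma. An unadjusted p under 0.05 was found for 10 of 103 in FGOs (6 higher and 4 lower). The share of all genes there was 10.5% (5.15% higher and 5.34% lower). In embryos it was found for 8 of 104 (7 higher and 1 lower), against 7.71% of all genes (1.20% higher and 6.50% lower). Between the stages 51 of 104 passed in controls (37 higher and 14 lower) and 47 of 103 in K36M (35 higher and 12 lower), with median log2 differences of 0.33 and 0.53. Over all genes tested 30.5% passed in controls (15.0% higher and 15.5% lower) and 25.3% in K36M (9.86% higher and 15.4% lower), and these shares are the background for each count that follows. The hnRNP proteins, which bind nascent RNA and often oppose SR proteins, had 12 of 21 higher in control embryos and 11 of 21 in K36M, and none lower. Hnrnpab was 208 TPM in control FGOs and 1197 TPM in control embryos (2.46 ± 0.28, adjusted p = 3.78e-05), and Hnrnpm 54.4 and 475 TPM (2.94 ± 0.44, adjusted p = 0.00027). Hnrnpab (2.77) and Hnrnpm (3.23) passed in K36M too. Of the SR-related and exon junction genes, 7 were higher and 1 lower in controls and 9 higher and 1 lower in K36M. Casc3, a core exon junction protein, rose by 2.27 ± 0.35 in controls (adjusted p = 0.000388), Tra2b, an SR-like splicing activator, by 2.08 ± 0.30 in K36M (adjusted p = 0.000195), and Magohb fell in both (-3.69 and -3.94).

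In the minor spliceosome, which removes a small class of introns, 4 of 9 genes rose and 3 fell in controls, and 3 rose and 3 fell in K36M. Zrsr1 was 1.30 TPM in control FGOs and 117 TPM in control embryos (5.73 ± 0.46, adjusted p = 1.85e-06). Snrnp35 was 2.15 and 204 TPM (5.82 ± 0.76, adjusted p = 0.000107), while Zcrb1 fell from 1251 to 281 TPM (-2.30 ± 0.38, adjusted p = 0.000598). The snRNP assembly genes had 5 higher and 3 lower of 13 in controls and 6 higher and 2 lower in K36M. Prmt5, the methyltransferase that acts on Sm proteins, rose from 12.1 to 155 TPM in controls (3.36 ± 0.50, adjusted p = 0.000281) and by 3.98 ± 0.48 in K36M (adjusted p = 4.17e-05). Smn1, the Sm ring assembly factor, fell in both (-1.99 and -1.90). Of the branch-site group 3 of 11 rose and 1 fell in controls and 2 rose and 1 fell in K36M, led by Sf1, the branch-point binding protein (1.83 and 1.92). Of the other U1, U5 and tri-snRNP genes 1 of 12 rose and 3 fell in controls and 3 fell in K36M. Eftud2, the U5 GTPase, fell in both (-4.40 and -4.23). The Prp19-related and step factors had 5 of 19 higher and 3 lower in controls and 4 higher and 2 lower in K36M, and Cdc5l rose in both (4.12 and 4.87).

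The SR protein kinases, which phosphorylate the SR domains, did not pass in any comparison. Srpk1 was 677 ± 22.7 TPM in control FGOs and 513 ± 101 TPM in control embryos, and 622 ± 82.9 and 468 ± 88.8 TPM in K36M. Srpk2 was 125 ± 8.50 and 122 ± 25.8 TPM in controls and 126 ± 12.8 and 157 ± 48.7 TPM in K36M. Clk1 was 139 ± 4.10 and 50.4 ± 24.1 TPM in controls and 159 ± 19.3 and 89.3 ± 35.5 TPM in K36M. The control FGO and embryo values of Clk1 lay apart, with a smallest adjusted p of 0.0554 among the 7 kinases. Clk2 and Clk3 had means of 51.8 to 94.9 TPM in the 4 groups, Clk4 of 16.2 to 55.7 TPM, and Srpk3 stayed at a mean of 2.02 TPM or less. Clk3 was 61.6 to 69.3 TPM in control FGOs and 79.5 to 85.3 TPM in K36M FGOs. These groups did not overlap, which in this direction was so for 7.46% of all genes tested. The smallest adjusted p of the 6 kinases tested between FGO genotypes was 0.362 in limma.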

How the data were processed

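RNA-seq was analysed for 21 of 22 libraries. The authors trimmed reads with Trim Galore, aligned them to mm10 with Hisat2, removed rRNA reads with BEDTools, counted with featureCounts and deposited TPM values (abundance per gene length, as a share of the library) for 26214 genes. Each library sums to 1000000 TPM, so read counts per gene and their counting error cannot be had. The paper lists total reads for each library, and these were not used in the fits. The gene annotation, the gene lengths and the strand setting are not given in the sources used here. Groups came from the sample labels. Values were tested as log2(TPM + 1) with limma 3.58.1 in R 4.3.3 (mean-variance trend, a floor of 1 on the mean TPM of the libraries in a fit, Benjamini-Hochberg adjustment over all genes tested, 0.05), in 5 fits: genotype in FGOs, genotype in embryos, stage in controls, stage in K36M, and the interaction. The scripts were tested on simulated data. Levels and figures used Python 3.11.15, numpy 2.4.6, pandas 2.3.3 and matplotlib 3.10.9. Near copies were found with BLAST 2.17.0+ in GRCm38.p6, and promoters came from RefSeq.

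The genes, the lists and the tests were chosen with earlier results of these data known. Genes were named by rule: the 6 per direction with the smallest p past the threshold and no overlap of groups, or 3 per direction by unadjusted p where fewer than 3 passed; the highest and lowest of each role in control groups; each Srsf gene; genes under the filter; and genes without overlap between genotypes. Of the other splicing genes, the kinases are named, and up to 3 per direction and list were eligible, of which fewer are named. Other called genes were added after their values were seen, so that the genes are accounted for, except that 1 gene is counted in the totals and not reported by itself here. Alternatives were another pseudocount, filter, scaling, prior, library weights, the replicate number as a block, and leaving out each library.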

Additional observations from a re-analysis of the deposited data

Results flagged for a closer look

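In the embryo groups, each of the 52 genes was checked for a single embryo far from the others (Dixon's test at 95% on log2(TPM + 1)). This flagged 14 of 104 tests. A rate of 1 in 20, or 5.2, would hold for independent and normally distributed values. These tests share embryos, and the share flagged over all genes was not computed, so no excess can be read from the count. No gene moved one way in every sample of one group and the opposite way in every sample of another.

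Among control embryos, replicate 6 stood low for 5 genes. It held 1.85 TPM of Snrpb (others 38.0 to 197), 45.9 TPM of Snrpa (others 166 to 310), 5.29 TPM of Sf3b3 (others 30.2 to 102), 0 TPM of Sf3b5 (others 64.5 to 250) and 35.6 TPM of Prpf8 (others 95.4 to 178). Without it the stage comparison of controls called 20 genes, 14 higher and 6 lower. Replicate 7 stood high for Snrpb2 at 166 TPM (others 48.4 to 63.4). Replicate 1 stood low for Sf3b6 at 42.6 TPM (others 96.3 to 175), and replicate 8 for Lsm6 at 0.574 TPM (others 13.8 to 52.8).

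Among K36M oocyte-derived embryos, replicate 8 stood high for Prpf38a at 1095 TPM (others 384 to 582) and for Srsf12 at 1.85 TPM (others at 0), and low for Sf3b3 at 5.66 TPM (others 25.5 to 86.6). Replicate 5 stood low for Snrpf at 62.6 TPM (others 147 to 239) and for Srsf3 at 0.315 TPM (others 9.86 to 59.8), and replicate 4 for Snrpb at 1.57 TPM (others 18.1 to 87.4).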

How the results depend on the processing

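Single genes were recomputed only where they passed in a comparison, were among the smallest p per direction where fewer than 3 passed, or had no overlap between genotypes, and none of these reversed direction. Other genes given with values were not recomputed. The control stage count of 16 became 28 with array weights and 8 to 20 when 1 library was left out, and the K36M count of 18 became 8 to 19 when 1 library was left out. The cause was not tested. Of the 28 summed levels by role and group, 8 moved by more than 1 SD under median-of-ratios scaling, 7 of them in control FGOs. Under the other settings the counts lay between 11 and 17 in controls and between 13 and 27 in K36M, apart from the block below. In both genotype comparisons and the interaction the count was 0 in limma under each alternative. In embryos the adjusted p ranged over 24 alternatives from 0.102 to 0.447 for Prpf38a, 0.117 to 0.593 for Sf3a3 and 0.112 to 0.562 for Lsm8.

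The replicate numbers did not pair the libraries: same-numbered libraries deviated together with correlations of 0.0145 to 0.101 in FGOs and -0.101 to 0.0968 in embryos, and 2 of 3 and 1 of 7 correlated best with their own number. With the replicate number as a block the stage counts were 18 in controls and 10 in K36M, and the other counts stayed at 0. TPM keeps no depth, and with 3 FGO libraries a group and single embryos the spread between libraries limits what can be called.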

Other observations

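Control embryo replicate 4, which entered no comparison, was above the range of the other 7 control embryos for 7 of the 52 genes, below it for 7 and inside it for 38. It held 178 TPM of Sf3a3, 21.3 TPM of Prpf38a and 0 TPM of Lsm8, and 4 of the 8 two-cell zygotic markers were at 0 in it. With this library added, the stage comparison of controls called 13 genes, 8 higher and 5 lower.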
